A study of Mus musculus with 11 samples.

Results

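The aminoacyl-tRNA synthetases are the enzymes that load each tRNA with its amino acid, and their RNA was examined in splenic B cells of mice whose MYC can or cannot bind its partner MIZ1. The group holds 36 genes of the 48795 in the expression table, taken by name and matched by Ensembl identifier, with 20 genes for enzymes of the cytosol and 16 for enzymes of mitochondria. RNA sequencing of 11 libraries was used, 1 per sorted sample of 1 mouse. Light zone (LZ) germinal center (GC) B cells came from 4 Myc WT mice (numbered 1 to 4 here) and from 4 Myc V394D mice (5 to 8), and memory B cells (MBCs) came from Myc WT mice 1, 3 and 4. All mice were females of 8 to 12 weeks on the C57BL/6 background, given sheep red blood cells intravenously, and spleens were taken 10 days later. The V394D change lies in the Myc gene itself, so it is present in all cells of these mice, and it abolishes binding of MYC to MIZ1 while binding to MAX is kept. LZ cells were sorted as B220+, CD138 negative, CD38 negative, Fas+, CD86 high and CXCR4 low, and MBCs as B220+, CD138 negative, AA4.1 negative, CD38+, IgD negative and CD273+, in both cases after depletion of CD43+ cells. The identifiers of Myc WT mice 1 to 3 share a prefix, mouse 4 has a different one and the Myc V394D mice have a further one, so genotype and this prefix cannot be told apart.

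Protein synthesis needs every amino acid on its tRNA, and each synthetase serves 1 amino acid, apart from Eprs, whose product loads both glutamate and proline. Cytosolic and mitochondrial translation use separate enzymes for most amino acids, all encoded in the nucleus, while Gars and Kars products serve both compartments. Several cytosolic enzymes sit with the scaffold proteins encoded by Aimp1, Aimp2 and Eef1e1 in the multisynthetase complex. MYC, which LZ B cells switch on when they are selected by T cell help, is known as a driver of genes for protein synthesis, and ATF4 is the factor that induces many cytosolic synthetases when amino acids run short. MBCs are resting cells, whereas selected LZ B cells are on their way back into division.

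Values are TPM (transcript abundance scaled to a fixed total per library), which divide estimated reads by transcript length and scale every library to the same total, so levels of different genes can be set side by side but the depth behind a value is unknown. A gene listed at 0 may be a failed estimate. Summed markers of the sorted cells followed the labels. The 8 GC markers were at 1203 to 1641 TPM over the LZ libraries and 329 to 448 TPM in MBCs. All 8 were lower in every MBC library than in every Myc WT LZ library. The 8 memory markers were at 20.7 to 51.3 TPM in LZ cells and 569 to 883 TPM in MBCs. Of these, 6 were higher in every MBC library than in every Myc WT LZ library, while Nt5e and Zbtb32 overlapped. Nt5e averaged 11.5 TPM in Myc WT LZ and 9.23 TPM in MBCs, and Zbtb32 was at 0.5, 0 and 6.56 TPM in MBCs. Ribosomal RNA, that of mitochondria included, took 35.7 to 44.5% of TPM in Myc WT LZ, 44.1 to 61.3% in Myc V394D LZ and 36.1 to 37.5% in MBCs, and nuclear protein-coding genes were left with 46.8 to 57.4%, 30.5 to 47.5% and 49.4 to 52.5%. Genes above 0 numbered 15460 to 19537 in Myc WT LZ, 13169 to 16421 in Myc V394D LZ and 11527 to 16040 in MBCs. The MBC library of mouse 3 had the fewest and stood apart, with 4 synthetases listed at 0 (Fars2, Pars2, Sars2 and Yars2). Its summed level of 6 erythroid markers was 6713 TPM against 7.60 to 410 TPM in the other 10 libraries. In bulk samples fewer cells of a type and less RNA per cell cannot be told apart.

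Apart from Lars2, both kinds of synthetase took a small share of coding RNA that overlapped between the 3 groups. The 20 cytosolic genes together held 0.185 ± 0.0342% (SD, n = 4) of the TPM of nuclear protein-coding genes in Myc WT LZ, 0.203 ± 0.0207% (SD, n = 4) in Myc V394D LZ and 0.185 ± 0.0332% (SD, n = 3) in MBCs. The 15 mitochondrial genes other than Lars2 held 0.0241 ± 0.00208%, 0.0259 ± 0.00623% and 0.0293 ± 0.0062% in the same order. Differences between group means were smaller than the largest SD in both shares. Lars2 alone held 0.249 ± 0.0312% in Myc WT LZ, 0.546 ± 0.151% in Myc V394D LZ (SD, n = 4 each) and 0.222 ± 0.00473% in MBCs (SD, n = 3), more than the 20 cytosolic genes together in each group mean, and its Myc V394D values, 0.427 to 0.767%, lay above all others.

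**Figure D1:**
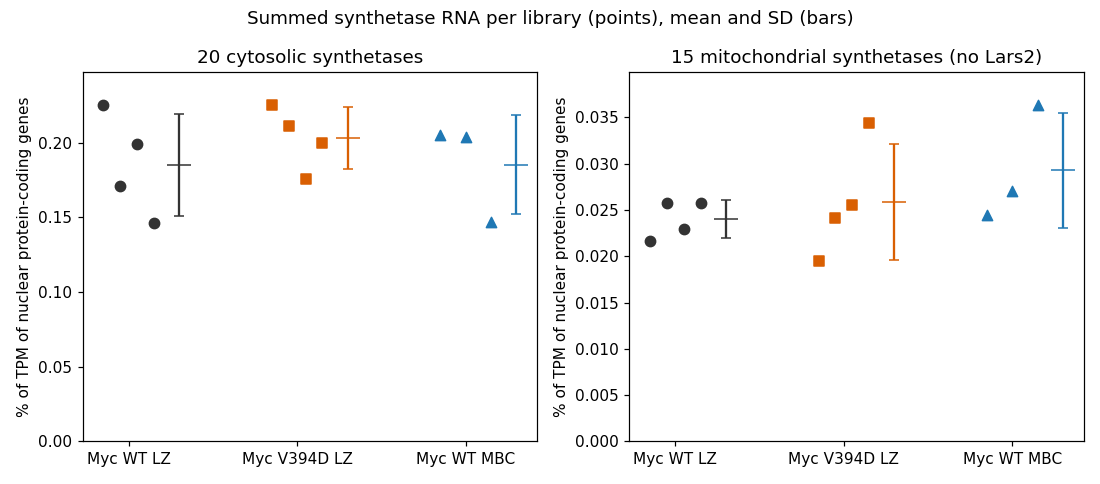
Summed RNA of the 20 cytosolic synthetases (left) and of the 15 mitochondrial synthetases without Lars2 (right) as a percentage of the TPM of all nuclear protein-coding genes, 1 point per library, with the mean and SD of each group beside the points. The cytosolic share lies between 0.146 and 0.225% and the mitochondrial share between 0.0195 and 0.0363% over the 11 libraries, and the 3 groups overlap in both panels.

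Among the cytosolic enzymes the highest mean over the 11 libraries was that of Farsb (82.8 TPM), followed by Vars (76.7 TPM), Mars1 (75.7 TPM), Qars (63.8 TPM) and Rars (61.5 TPM), which load phenylalanine, valine, methionine, glutamine and arginine. Farsb was at 116, 72.7, 110.01 and 59.4 TPM in Myc WT mice 1 to 4, at 126, 49.2, 36.7 and 49.7 TPM in Myc V394D mice 5 to 8 and at 81.5, 138 and 71.2 TPM in the MBCs of mice 1, 3 and 4. The groups overlapped, and Myc V394D mouse 5 lay far above the other 3 mice of its group. Neighbours in this order did not differ beyond their spread: Vars was at 79.1 ± 36.3 TPM, Mars1 at 80.2 ± 22.4 TPM and Qars at 67.9 ± 7.18 TPM in Myc WT LZ (SD, n = 4 each). Rars was at 64.7 ± 12.9 TPM there, at 54.2 ± 24.6 TPM in Myc V394D LZ (SD, n = 4) and at 67.0 ± 21.3 TPM in MBCs (SD, n = 3).

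The lowest cytosolic mean was that of Farsa (16.2 TPM), whose product is the catalytic subunit of the same phenylalanine enzyme to which the Farsb product belongs as the other subunit. Farsa was at 11.2, 20.4, 24.4 and 15.6 TPM in Myc WT LZ, at 19.96, 4.4, 13.4 and 15.2 TPM in Myc V394D LZ and at 2.71, 30.9 and 20.4 TPM in MBCs. Farsb was above Farsa in all 11 libraries, by a ratio from 2.74 (Myc V394D mouse 7) to 30.1 (MBCs of mouse 1), with a median of 4.16 over the Myc WT LZ libraries. RNA of the subunits was unequal per length in every library, and the ratio ranged widely within each group. In the annotation Farsb overlaps Sgpp2 over 250 bases on the opposite strand, and counting kept the strands apart.

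Lars2, the mitochondrial leucine enzyme, lay far above every other member of either kind, with a mean of 1536 TPM over the 11 libraries. Next among the mitochondrial genes came Hars2 (16.5 TPM) and Cars2 (15.4 TPM), which load histidine and cysteine. Hars2 was at 15.7, 18.2, 15.6 and 8.72 TPM in Myc WT LZ, at 5.10, 4.2, 9.89 and 14.9 TPM in Myc V394D LZ and at 5.94, 56.4 and 27.1 TPM in MBCs. Cars2 was at 13.5, 23.2, 16.1 and 20.1 TPM, at 8.00, 5.64, 22.7 and 15.7 TPM and at 6.03, 16.5 and 21.5 TPM in the same order. Within the MBC group Hars2 spread more than within either LZ group. Aars2, the mitochondrial alanine enzyme, was lowest at 1.08 ± 0.59 TPM in Myc WT LZ (SD, n = 4), and reached 3.98 TPM in Myc V394D mouse 6 and 8.26 TPM in the MBCs of mouse 3 with all other libraries between 0.29 and 1.74 TPM.

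**Figure D2:**
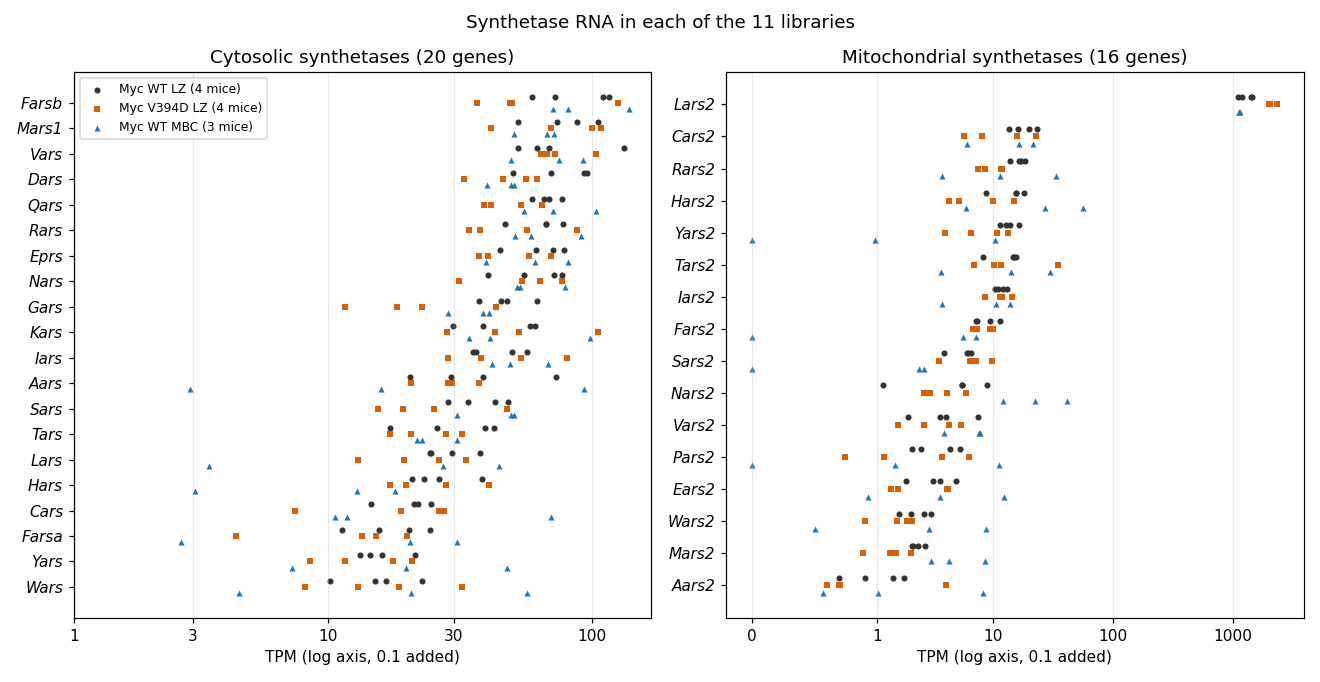
TPM of the 20 cytosolic (left) and 16 mitochondrial (right) synthetase genes on a log axis with 0.1 added, 1 point per library, genes ordered by their mean in Myc WT LZ. Cytosolic genes lie mostly between 10 and 100 TPM, the mitochondrial genes apart from Lars2 mostly between 1 and 30 TPM, and MBC libraries (triangles) scatter most among the mitochondrial genes.

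Compared amino acid by amino acid, the cytosolic enzyme was above its mitochondrial counterpart in all 11 libraries for glutamate and proline (Eprs against Ears2 and Pars2), isoleucine, methionine, asparagine, arginine, serine, valine and tryptophan, and for Farsb against Fars2. Farsa, the other subunit of the phenylalanine enzyme, was above Fars2 in 9 of 11 libraries. Aars was above Aars2 in 10 and Tars above Tars2 in 9. The pairs closest in level were Cars and Cars2, with a median ratio of 1.32 and the cytosolic gene higher in 8 of 11 libraries, and Yars and Yars2, with a median ratio of 1.28 and 9 of 11 libraries. Hars was above Hars2 in all 8 LZ libraries and below it in all 3 MBC libraries, with the lowest ratio, 0.227, in mouse 3. Hars and Hars2 start back to back and overlap by 195 bases on opposite strands. For leucine the order was the other way round in every library, since Lars was at 3.47 to 44.7 TPM and Lars2 at 1103 to 2337 TPM.

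The spread between mice differed by group. The median SD of log2(TPM + 1) over the 20 cytosolic genes was 0.391 in Myc WT LZ, 0.585 in Myc V394D LZ and 0.48 in MBCs, beside 0.331, 0.587 and 0.943 over all genes tested. Over the 15 mitochondrial genes without Lars2 it was 0.325, 0.592 and 1.44. Single MBC libraries could lie far apart: Aars, the alanine enzyme, was at 93.7, 2.92 and 15.8 TPM in mice 1, 3 and 4, and Wars, the tryptophan enzyme, at 4.52, 56.9 and 20.6 TPM. The longest Aars transcript shares 1326 bases with Exosc6 on the same strand, so strand alone cannot separate their reads. Exosc6 was at 0 to 7.78 TPM over the libraries.

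Promoter windows of 27 of the 36 genes were taken from RefSeq (GRCm38.p6), from 250 bases before the start to 50 bases from it on. They were searched on both strands for CACGTG, the E-box that MYC binds with MAX, and for TGATGNAA, the core of the element that ATF4 binds with C/EBP partners; the E-box and the core do not overlap in these windows. E-boxes lay in windows of 5 of the 27 genes (18.5%; Aars, Ears2, Farsb, Iars and Tars), and 8.09% of the 27025 genes in the RefSeq table hold one. The ATF4 core lay in 5 (18.5%; Aars, Gars, Iars, Tars and Yars) against 4.51% of all genes, and these 5 all encode cytosolic enzymes on the list of ATF4 response synthetases. Aars, Iars and Tars held both motifs. The last 200 bases up to 25 bases past the start are shown for those 5 genes and for Farsb, the highest cytosolic gene, with the motifs in capitals; the core reads TTNCATCA where it lies on the other strand.
Aars, chr8:111033667-111033866, plus strand: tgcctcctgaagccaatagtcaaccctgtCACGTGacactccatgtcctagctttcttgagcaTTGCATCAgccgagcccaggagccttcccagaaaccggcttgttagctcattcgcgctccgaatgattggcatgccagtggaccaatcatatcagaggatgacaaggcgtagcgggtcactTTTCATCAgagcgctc
Gars, chr6:55037826-55038025, plus strand: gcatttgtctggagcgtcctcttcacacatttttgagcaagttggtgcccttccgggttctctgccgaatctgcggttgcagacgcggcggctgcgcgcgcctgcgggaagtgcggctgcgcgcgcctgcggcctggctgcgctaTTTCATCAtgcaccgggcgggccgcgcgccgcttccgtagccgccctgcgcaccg
Iars, chr13:49681955-49682154, plus strand: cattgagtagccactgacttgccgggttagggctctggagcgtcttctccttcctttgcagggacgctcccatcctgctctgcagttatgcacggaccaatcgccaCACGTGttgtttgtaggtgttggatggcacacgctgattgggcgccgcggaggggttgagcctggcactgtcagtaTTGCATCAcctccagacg
Tars, chr15:11399634-11399833, minus strand: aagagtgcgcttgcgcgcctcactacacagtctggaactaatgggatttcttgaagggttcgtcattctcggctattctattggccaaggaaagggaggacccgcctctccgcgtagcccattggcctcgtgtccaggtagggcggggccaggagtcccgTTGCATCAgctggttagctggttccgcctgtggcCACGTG
Yars, chr4:129189728-129189927, plus strand: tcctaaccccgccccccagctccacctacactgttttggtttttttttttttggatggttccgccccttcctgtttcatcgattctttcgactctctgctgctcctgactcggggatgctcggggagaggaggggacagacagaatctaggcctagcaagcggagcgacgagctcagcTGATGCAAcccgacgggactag
Farsb, chr1:78488873-78489072, minus strand: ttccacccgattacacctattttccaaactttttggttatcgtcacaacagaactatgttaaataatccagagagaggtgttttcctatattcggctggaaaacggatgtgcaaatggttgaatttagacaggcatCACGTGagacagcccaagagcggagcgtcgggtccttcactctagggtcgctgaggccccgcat
The core begins 30 bases before the start in Gars and 15 bases before it in Tars, 3 bases past the start in Yars and 7 bases past it in Iars, and Aars holds a core 112 bases before the start and another 9 bases past it. A match describes the letters only, and binding was not measured here.

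Myc V394D was compared with Myc WT LZ to ask which genes change when MYC cannot bind MIZ1. No synthetase passed the test in this comparison. Of the 36 genes, 0 had an adjusted p under 0.05 in limma, where 0.0466% of all 12869 genes tested did (6 genes), and 1 was higher and 3 were lower at an unadjusted p under 0.05, where 1.24% of all genes were higher and 15.7% lower. The median log2 difference was -0.31 for the cytosolic and -0.23 for the mitochondrial genes, close to the -0.31 of all genes tested, and after rescaling by the median ratio these became 0.02, 0.04 and -0.01. Of the 36, 29 were below 0, as were 73.7% of all genes tested, and 19 lay above the median of all genes. Differences are on the log2(TPM + 1) scale, which understates those of low genes, and are given as Myc V394D minus Myc WT.

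Gars, the glycine enzyme that serves both compartments, had the largest difference down among the cytosolic genes. It was at 47.9, 45.2, 61.9 and 37.4 TPM in Myc WT mice and at 43.5, 11.6, 18.2 and 22.7 TPM in Myc V394D mice. Myc V394D mouse 5 lay within the Myc WT range and the other 3 below it. The log2 difference was -1.10 (SE 0.35, adjusted p = 0.167 from limma; exact permutation test, two-sided p = 0.0571), or -0.80 relative to all genes. Without mouse 5 it was -1.43 with an adjusted p of 0.0429 from limma, and 254 genes in all were then called.

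Dars and Qars, the aspartate and glutamine enzymes of the multisynthetase complex, had the next lowest p among the cytosolic genes. Dars was at 70.3, 95.8, 93.9 and 50.5 TPM in Myc WT mice and at 62.3, 56.3, 46.1 and 32.8 TPM in Myc V394D mice (log2 difference -0.64, or -0.33 relative to all genes, SE 0.28, adjusted p = 0.273 from limma). Qars was at 66.1, 69.1, 76.9 and 59.6 TPM and at 54.0, 64.7, 39.2 and 41.6 TPM (log2 difference -0.46, or -0.15 relative to all genes, SE 0.22, adjusted p = 0.321 from limma). In both genes all 4 Myc V394D values lay under the Myc WT median, and the groups overlapped. After rescaling by the median ratio the differences were -0.30 for Dars and -0.12 for Qars. Among the 8 enzymes of the complex 6 were below 0, with a median of -0.33, and 0 passed the adjusted test.

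The scaffolds of the complex were all below 0 as well, with a median of -0.65, or -0.35 relative to all genes. Aimp1 was at 39.1, 54.4, 59.6 and 45.03 TPM in Myc WT mice and at 25.4, 49.5, 18.3 and 25.3 TPM in Myc V394D mice (log2 difference -0.80, SE 0.30, adjusted p = 0.223 from limma). In 3 of the 4 mice the Myc V394D values lay under all Myc WT values. Aimp2 was at 17.2 ± 5.01 and 12.3 ± 8.63 TPM and Eef1e1 at 22.3 ± 5.97 and 15.8 ± 8.97 TPM (SD, n = 4 each), differences within the spread between mice.

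Kars, the lysine enzyme, had the largest cytosolic difference up, and it was small. It was at 58.2, 38.6, 61.2 and 29.9 TPM in Myc WT mice and at 52.9, 106, 43.1 and 28.2 TPM in Myc V394D mice. The difference of 0.18 (SE 0.38, adjusted p = 0.841 from limma) rested on mouse 6, without which it was -0.17, and it was -0.01 without Myc WT mouse 4. The other cytosolic genes lay between -0.59 and 0.09. By the structural class of the enzyme, the cytosolic median was -0.15 for 9 class I and -0.43 for 10 class II genes, a difference that was not tested, and in MBCs it was 0.05 and -0.32.

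Among the mitochondrial genes, Rars2, the arginine enzyme, was at 13.7, 16.4, 18.6 and 17.1 TPM in Myc WT mice and at 11.7, 11.8, 7.44 and 8.56 TPM in Myc V394D mice. All Myc V394D values lay below all Myc WT values (two-sided p = 0.0286 by exact permutation, which is the minimum for 4 against 4). The log2 difference was -0.70, or -0.39 relative to all genes (SE 0.27, adjusted p = 0.228 from limma). After rescaling by the median ratio the Rars2 difference was -0.38, with an unadjusted p of 0.149 from limma. Hars2, given above, had the largest difference down, -0.81, or -0.50 relative to all genes (SE 0.40, adjusted p = 0.330 from limma), with overlapping groups. Mars2, the methionine enzyme, also did not overlap between the groups, at 2.61, 2.30, 2.04 and 2.09 TPM against 1.46, 0.74, 2.01 and 1.31 TPM, and was named after its values were seen. In all, 2 of the 36 genes were lower and 1 was higher with no overlap, where 9.16% of all genes tested were lower and 0.816% higher in this way.

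The gene that was higher was Lars2. It was at 1430.4, 1103, 1409.7 and 1182 TPM in Myc WT mice and at 2028, 1994, 2028 and 2337 TPM in Myc V394D mice, with no overlap, and at 1115, 1130.4 and 1138 TPM in MBCs. The log2 difference was 0.72 (SE 0.18, adjusted p = 0.114 from limma; exact permutation test, two-sided p = 0.0286), or 1.02 relative to all genes. Under quantile normalization it was 1.11 with an adjusted p of 0.0484 from limma, and over all alternatives it lay between 0.65 and 1.11 with adjusted p from 0.0484 to 0.413. All mice of 1 genotype were on the same side of all mice of the other.

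Shares of ribosomal RNA are given beside the Lars2 values. The nuclear ribosomal RNA gene of the table, CT010467.1, took 17.0 to 21.3% of TPM in Myc WT LZ, 20.6 to 26.5% in Myc V394D LZ and 7.29 to 9.23% in MBCs. Per 100 TPM of all ribosomal RNA, Lars2 was at 0.265 to 0.395 TPM in Myc WT LZ, 0.381 to 0.46 TPM in Myc V394D LZ and 0.3 to 0.315 TPM in MBCs, so that the LZ groups overlapped on this scale, whereas they did not overlap as a share of nuclear protein-coding TPM (0.21 to 0.286% and 0.427 to 0.767%). Per 100 TPM of CT010467.1 alone it was at 0.592 to 0.827, 0.771 to 0.983 and 1.23 to 1.53 TPM. All ribosomal RNA took 42.1, 39.9, 35.7 and 44.5% of TPM in Myc WT mice 1 to 4 and 44.1, 49.8, 52.1 and 61.3% in Myc V394D mice 5 to 8, so that the groups overlapped by 1 library each. The longest Lars2 transcript in GENCODE M21 has 3894 bases with the 3′ untranslated part from base 2909, and bases 3278 to 3349 (chromosome 9, 123462048 to 123462119 of GRCm38, plus strand) match Gm15564 at 98.6% identity over 72 bases. The first 30 bases of that stretch also stand in AA474408, and both genes lie on other chromosomes; AA474408 was at 0.37 to 25.1 TPM and Gm15564 was listed at 0 in every library. The part of ribosomal RNA in the Lars2 values was not tested. Without Lars2 the mitochondrial median was -0.24.

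**Figure D3:**
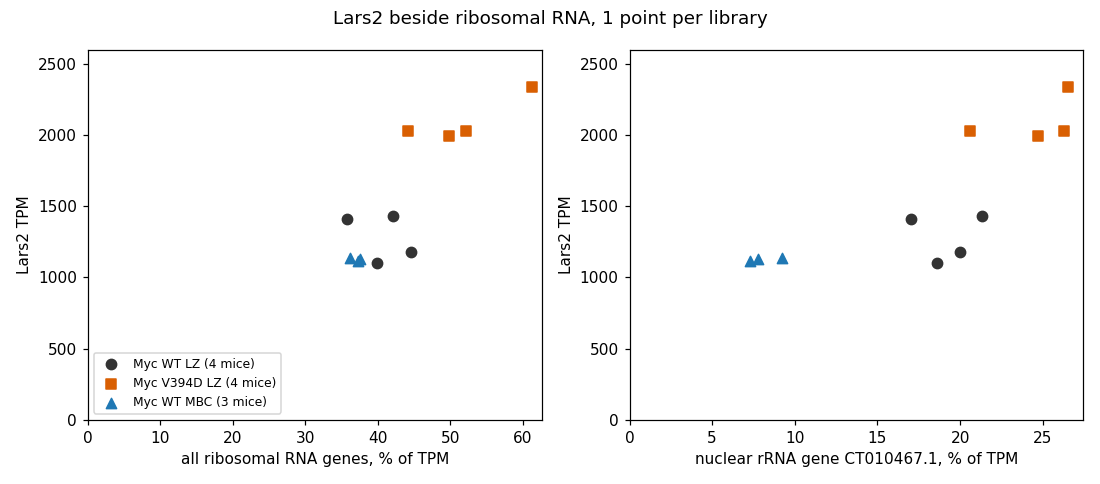
Lars2 TPM (y axis) against the share of TPM taken by all ribosomal RNA genes (left) and by the nuclear ribosomal RNA gene CT010467.1 (right), 1 point per library. The 4 Myc V394D libraries lie at 1994 to 2337 TPM, above the 7 Myc WT libraries, at 44.1 to 61.3% ribosomal RNA, where Myc WT LZ has 35.7 to 44.5%.

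MBCs were compared with the Myc WT LZ B cells, which hold selected and unselected cells together, and again no synthetase passed the test. Of the 36 genes, 0 had an adjusted p under 0.05 in limma, where 9.2% of all 13245 genes tested did (1219 genes). At an unadjusted p under 0.05, 1 was higher and 3 were lower, where 11.3% of all genes were higher and 15.8% lower. The median log2 difference (MBC minus LZ) was -0.03 for the cytosolic and -0.14 for the mitochondrial genes, beside -0.14 for all genes tested. With no overlap between the groups, 2 were higher and 4 lower, where 11.8% and 14.4% of all genes tested were.

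Among the cytosolic synthetases 10 of 20 were above 0 in MBCs against LZ B cells. The gene furthest down was Hars, the histidine enzyme, at 23.2, 26.4, 38.2 and 20.9 TPM in LZ cells and at 3.06, 12.8 and 17.9 TPM in MBCs of mice 1, 3 and 4. All MBC values lay below all LZ values (log2 difference -1.43, SE 0.55, adjusted p = 0.135 from limma; exact permutation test, two-sided p = 0.0286, the minimum for 3 against 4). Without the MBC library of mouse 1 the Hars difference was -0.77. Dars was at 49.6, 50.9 and 40.2 TPM in MBCs, where LZ cells had 50.5 to 95.8 TPM, so that the groups touched (log2 difference -0.68, SE 0.30, adjusted p = 0.186 from limma). Under quantile normalization Dars passed, at -0.89 with an adjusted p of 0.046 from limma. Gars was at 40.8, 38.8 and 28.4 TPM in MBCs, within and just below its LZ range.

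The largest cytosolic difference up was that of Yars, the tyrosine enzyme, at 14.4, 16.05, 21.4 and 13.2 TPM in LZ cells and at 19.8, 47.8 and 7.26 TPM in MBCs. Its difference of 0.25 (SE 0.57, adjusted p = 0.815 from limma) became -0.38 without the MBC library of mouse 3. The 8 enzymes of the multisynthetase complex had a median of -0.04, with 4 above and 4 below 0. Their scaffolds had a median of 0.00, with Aimp1 at 17.4, 81.1 and 63.8 TPM, Aimp2 at 4.83, 61.3 and 14.1 TPM and Eef1e1 at 9.73, 65.2 and 29.9 TPM in MBCs. The scaffolds shared their order over the MBC libraries, lowest in mouse 1 and highest in mouse 3.

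Mitochondrial synthetases spanned a wider range of differences, from -2.37 to 2.11, and also spread more between MBC libraries. Nars2, the asparagine enzyme, was at 1.13, 5.48, 5.46 and 8.89 TPM in LZ cells and at 41.1, 22.4 and 12.2 TPM in MBCs. All MBC values lay above all LZ values (log2 difference 2.11, SE 0.64, adjusted p = 0.073 from limma; exact permutation test, two-sided p = 0.0286). Its antisense neighbour C230038L03Rik, which overlaps it by 284 bases, stayed at or under 0.69 TPM in every library.

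Yars2, the tyrosine enzyme, was at 16.4, 12.7, 13.9 and 11.3 TPM in LZ cells and at 0.94 and 10.4 TPM in MBCs of mice 1 and 4, and listed at 0 in mouse 3. The log2 difference was -2.37 (SE 0.78, adjusted p = 0.091 from limma), with no overlap. Sars2, the serine enzyme, was at 3.84, 6.11, 6.52 and 6.0 TPM in LZ cells and at 2.32 and 2.57 TPM in MBCs of mice 1 and 4, and again listed at 0 in mouse 3 (log2 difference -1.52, SE 0.59, adjusted p = 0.139 from limma). Without the MBC library of mouse 3 the Sars2 difference was -0.92. Fars2 (7.20 to 11.5 TPM in LZ cells; 7.18, 0 and 5.55 TPM in MBCs) and Mars2 (2.04 to 2.61 TPM in LZ cells; 8.47, 4.25 and 2.97 TPM in MBCs) also did not overlap and were named after their values were seen. In both genes 1 MBC library came close to the LZ range.

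Calls of Nars2 and Yars2 varied with the libraries and the fit used. The MBC library of mouse 4 held a value nearer to LZ cells in both genes. Without it Nars2 passed at 2.53 (adjusted p = 0.0381 from limma) and Yars2 at -3.38 (adjusted p = 0.0045 from limma), while the number of all genes called went from 1219 to 2754, and with all 3 groups in 1 fit both passed as well. With any other library left out Nars2 lay between 1.66 and 2.39 and Yars2 between -2.45 and -1.62 and neither passed, with adjusted p from limma up to 0.164 and 0.209, and with the mouse as a block these were 0.242 and 0.25. Myeloid markers were higher in MBCs, at a summed 42.2 to 225 TPM for 7 genes against 4.26 to 12.3 TPM in Myc WT LZ, and 1 of the 7 was at 0 in every Myc WT LZ library and 2 in every MBC library; 2 of the 4 tested passed the test. The 6 erythroid markers were at 7.60 to 6713 TPM in MBCs and 116 to 226 TPM in Myc WT LZ, and at 71.9 to 410 TPM in Myc V394D LZ, where 3 of the 6 were higher than in Myc WT LZ at an unadjusted p under 0.05 and 0 passed the adjusted test. The 6 plasma cell markers were at a summed 294 to 470 TPM in Myc WT LZ, 151 to 297 TPM in Myc V394D LZ and 207 to 419 TPM in MBCs. In Myc V394D LZ all 5 tested were below 0, with a median of -0.18 relative to all genes, and 0 passed the adjusted test. In MBCs 1 of the 5 tested passed and was lower. The 4 naive follicular B cell markers were at a summed 832 to 893 TPM in MBCs and 366 to 368 TPM in Myc WT LZ, and 3 of the 4 passed the adjusted test. Among them Ighd, the heavy chain of IgD, was at 156, 59.3 and 90.6 TPM in MBCs, which were sorted as IgD negative, and at 19.6 to 31.9 TPM in Myc WT LZ. Another of the 4, Fcer2a, was at 480 to 531 TPM in MBCs and encodes CD23. The paper also measured CD23+ cells within CD273+ MBCs, so this sum is not particular to naive cells. The part of other cell types in these differences was not tested.

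**Figure D4:**
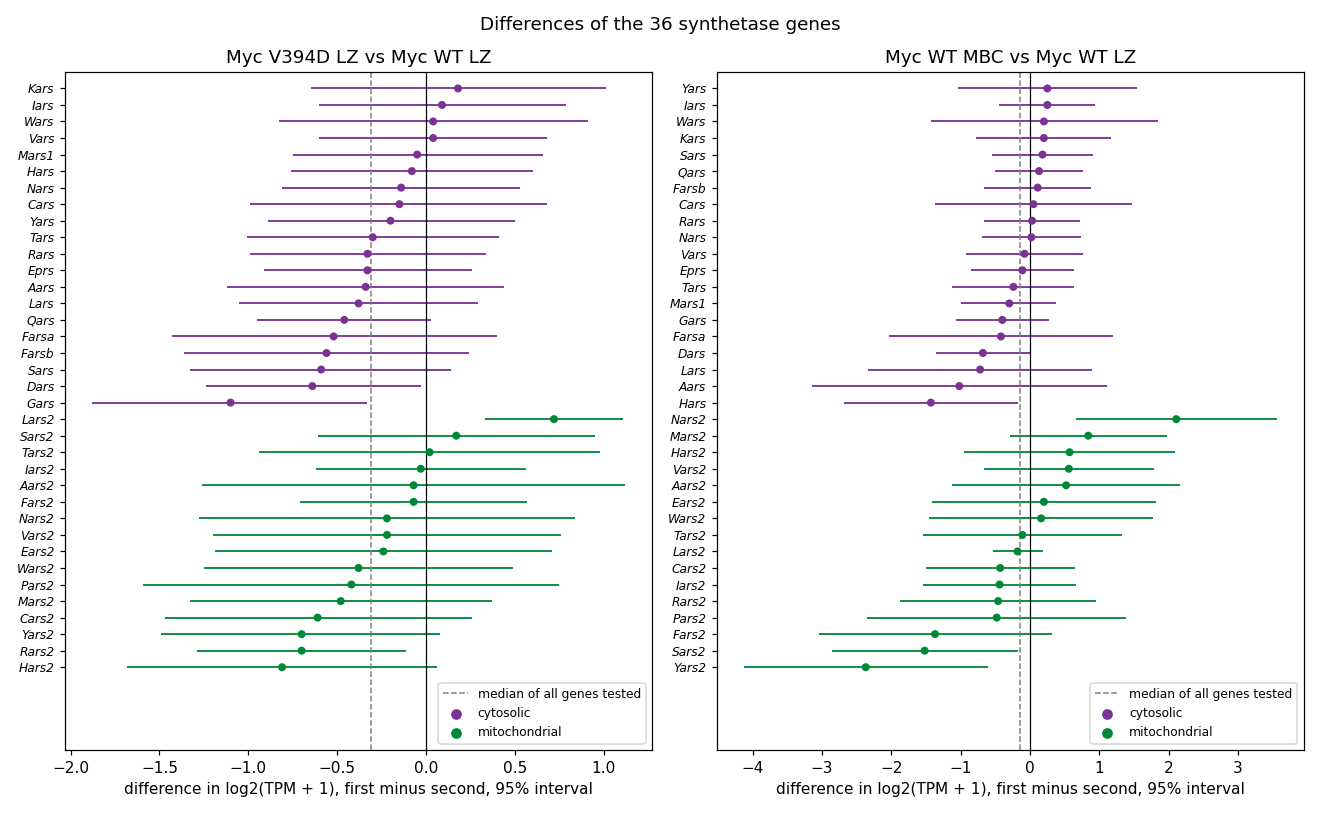
Difference in log2(TPM + 1) of each synthetase gene with its 95% interval from limma, for Myc V394D minus Myc WT LZ (left) and Myc WT MBC minus Myc WT LZ (right), cytosolic genes above and mitochondrial genes below. The dashed line is the median of all genes tested (-0.31 and -0.14), around which most genes lie, and intervals leave out 0 for Lars2, Gars, Rars2 and Dars on the left and for Nars2, Hars, Sars2 and Yars2 on the right.

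The 12 cytosolic synthetases known to respond to ATF4 had a median of -0.04 in MBCs, with 6 above and 6 below 0, and 0 passed the test. The other genes of the ATF4 response stood lower there, with a median of -1.22 over 16 tested genes of 19, 14 of them below 0, where 55.3% of all genes tested were. At an unadjusted p under 0.05, 8 of the 16 were lower and 0 higher, where 15.8% and 11.3% of all genes tested were, and 1 passed the adjusted test, as 9.2% of all genes did. Atf4 itself was the one that passed: it fell from 83.5, 88.4, 91.1 and 60.7 TPM in LZ cells to 17.1, 9.90 and 40.9 TPM in MBCs (log2 difference -2.0, SE 0.45, adjusted p = 0.0282 from limma). The call was lost under 8 of 17 alternatives, with adjusted p of 0.0575 to 0.0958 from limma without the MBC library of mouse 1 or any 1 of the LZ libraries, and 0.117 with the mouse as a block. Whether the ATF4 synthetases and the other genes of the list differ was not tested. In Myc V394D LZ the synthetases had a median of -0.25 and the other genes -0.28, close to all genes, with the lowest p in Psat1 of serine synthesis, at 75.4, 56.7, 64.1 and 43.8 TPM against 92.4, 102, 122 and 84.2 TPM in Myc WT mice (log2 difference -0.74, or -0.43 relative to all genes, adjusted p = 0.153 from limma). Atf4 was at 58.5 ± 12.9 against 80.9 ± 13.9 TPM (SD, n = 4 each; log2 difference -0.47, adjusted p = 0.334 from limma).

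Upstream of the synthetases, 21 genes of RNA polymerase III and its factors, which transcribe tRNA, had a median of -0.36 in Myc V394D LZ (-0.06 relative to all genes) and -0.11 in MBCs, with 0 past the adjusted test in either. In Myc V394D LZ the lowest p were those of Crcp, a polymerase subunit (14.3 ± 6.96 against 28.0 ± 3.64 TPM, log2 difference -1.05, adjusted p = 0.183 from limma), and Gtf3c2 of the factor TFIIIC (log2 difference -0.71, or -0.44 without mouse 6, adjusted p = 0.271 from limma). In MBCs they were those of Maf1, the repressor of RNA polymerase III, and of the subunit gene Polr3f. Maf1 was at 12.6, 16.9, 18.9 and 12.4 TPM in LZ cells and at 30.7, 120 and 40.2 TPM in MBCs, with all MBC values above all LZ values (log2 difference 1.76, adjusted p = 0.0537 from limma), and it passed under 6 of 17 alternatives. Polr3f was at 188, 140 and 15.7 TPM in MBCs and 10.4 to 14.6 TPM in LZ cells (log2 difference 2.47, adjusted p = 0.0737 from limma). It passed under 3 of 17 alternatives, at 3.56 (adjusted p = 0.00144 from limma) without the MBC library of mouse 4.

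Genes of tRNA processing and export had a median of -0.49 in Myc V394D LZ (22 tested of 23; -0.18 relative to all genes) and -0.51 in MBCs. Rtcb, the tRNA ligase (log2 difference -0.72, adjusted p = 0.191 from limma), and Clp1, an RNA kinase of tRNA splicing (log2 difference -1.28, adjusted p = 0.227 from limma), had the lowest p in Myc V394D LZ, where 0 genes passed the adjusted test. In MBCs Rpp30, a subunit of RNase P, fell from 12.5, 22.6, 26.6 and 18.9 TPM to 0.51, 0 and 7.47 TPM (log2 difference -3.13, SE 0.74, adjusted p = 0.0336 from limma), a call that 8 of 17 alternatives did not keep, with adjusted p of 0.0702 to 0.118 from limma without the MBC library of mouse 1 or any 1 of the LZ libraries, and 0.133 with the mouse as a block.

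Downstream, the 6 factors that carry loaded tRNA to the ribosome were all below 0 in Myc V394D LZ, with a median of -0.43, or -0.12 relative to all genes. Eef1b2, an exchange factor subunit of elongation factor 1, was at 647, 741, 765 and 576 TPM in Myc WT and at 443, 464, 309 and 265 TPM in Myc V394D mice. The groups did not overlap (log2 difference -0.91, or -0.60 relative to all genes, SE 0.22, adjusted p = 0.111 from limma). Its partner Eef1d was at 199 ± 52.1 against 131 ± 22.3 TPM (SD, n = 4 each; log2 difference -0.57, or -0.27 relative to all genes, adjusted p = 0.257 from limma). In MBCs the median was -0.19, with Tsfm, the mitochondrial exchange factor, at 8.96 to 13.6 TPM in LZ cells and 0, 0.34 and 6.91 TPM in MBCs (log2 difference -2.48, adjusted p = 0.0673 from limma), and Eef1g at a log2 difference of 0.60 (adjusted p = 0.202 from limma). Tsfm passed under 3 of 17 alternatives, at -3.41 (adjusted p = 0.0037 from limma) without the MBC library of mouse 4.

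Mitochondria make glutaminyl-tRNA by amidation and start proteins with a formylated methionine, and the 4 genes for these steps had a median of -0.59 in Myc V394D LZ (-0.29 relative to all genes) and -0.46 in MBCs, with 0 past the adjusted test in either comparison. Mtfmt, the formyltransferase, was at 10.9, 14.0, 12.7 and 16.2 TPM in Myc WT and at 5.83, 5.58, 8.82 and 8.72 TPM in Myc V394D LZ, with no overlap (log2 difference -0.83, or -0.52 relative to all genes, adjusted p = 0.196 from limma). Gatc, of the amidotransferase, differed by -0.53 there (adjusted p = 0.456 from limma), by -0.81 without mouse 5 and by -0.30 without mouse 6. In MBCs Qrsl1 differed by -0.77 (adjusted p = 0.494 from limma), which became 0.11 without the library of mouse 1, and Gatb by -0.61 (adjusted p = 0.541 from limma), which became -0.21 without the LZ library of mouse 1. The 3 genes that clear wrongly loaded tRNA had a median of -0.71 in Myc V394D LZ (-0.40 relative to all genes) and -1.35 in MBCs, with 0 past the adjusted test, and with Dtd1 at -0.81 (adjusted p = 0.313 from limma; -0.50 without mouse 6) and Dtd2 at -0.71 (adjusted p = 0.409 from limma) in Myc V394D LZ, and with Aarsd1 at -1.40 (adjusted p = 0.186 from limma) and Dtd1 at -1.35 (adjusted p = 0.207 from limma) in MBCs. Aarsd1 was at -2.19 without the MBC library of mouse 4, where it passed (adjusted p = 0.00944 from limma), and at -0.88 without that of mouse 1, and Dtd1 was at -0.58 without that of mouse 1. Both comparisons share the Myc WT LZ libraries.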

How the data were processed

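The authors aligned reads with STAR 2.5.2a and quantified genes with RSEM 1.3.0, with strand-specific counting against Ensembl transcripts (GRCm38), and deposited TPM rounded to 2 decimals; their annotation release is not given in the sources used here. TPM keep no depth, so precision was taken from the spread between mice alone. Symbols came from GENCODE M21; Mars1 is Mars there. Fits used limma 3.58.1 (R 4.3.3, trend on, each with the 2 groups of its comparison alone) on log2(TPM + 1), leaving out genes whose mean was under 1 TPM, by a two-sided test with Benjamini-Hochberg adjustment over all genes tested at 0.05, a design taken in place of the authors' count test. A two-sided exact permutation test (scipy 1.17.1) was added per gene. Transcripts were matched with blastn 2.17.0. The members and gene lists were chosen with earlier results of these data known. Values in every library are given for the 5 members with the lowest p in a comparison, the largest differences up and down of each kind, and most of the highest and lowest levels; of other lists, the genes named are those past the threshold or else the 2 with the lowest p, some by group means or differences alone. MBC and LZ libraries of mice 1, 3 and 4 pair by mouse in the labels; across genes, their deviations had r = 0.00507, 0.0115 and -0.047.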

Additional observations from a re-analysis of the deposited data

Results flagged for a closer look

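In groups of 4 libraries a value is listed here when its gap to the nearest of the others takes over 0.829 of the group's range, which chance gives in about 1 of 20 groups; 5 of 72 groups (6.94%) held one. Farsb was at 126.32 TPM in Myc V394D mouse 5 against 36.7 to 49.7 TPM in the other 3 mice. Aars2 was at 3.98 TPM in Myc V394D mouse 6 against 0.32 to 0.44 TPM. Lars2 was at 2337.25 TPM in Myc V394D mouse 8 against 1994 to 2028 TPM. Tars2, the mitochondrial threonine enzyme, was at 8.18 TPM in Myc WT mouse 1 against 14.6 to 15.4 TPM, and at 35.2 TPM in Myc V394D mouse 6 against 6.84 to 11.6 TPM.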

How the results depend on the processing

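Of 721 values recomputed under alternatives, 650 stayed the same. For a gene this meant the same sign and side of the threshold, and for a list median a move smaller than the spread between replicates. Counts of genes called had to be equal or to differ by no more than a set factor. Of the 650, 6 changed sign, all list medians. The cytosolic median in Myc V394D LZ became 0.02 with the median ratio and 0.03 without ribosomal RNA, immunoglobulin and mitochondrial genes, and lay between -0.46 and -0.17 with each library left out. With each library left out the medians in MBCs lay between -0.24 and 0.09 (cytosolic) and between -0.55 and 0.15 (mitochondrial). In Myc V394D LZ the count of synthetases called was 1 under quantile normalization (Lars2) and 0 to 1 with each library left out in turn (Gars without mouse 5), and 0 otherwise; at an unadjusted p under 0.05 it was 4. The mitochondrial median went from -0.23 to 0.04 with the median ratio, 0.09 with quantile normalization and 0.04 without ribosomal RNA, immunoglobulin and mitochondrial genes, each a rescaling of all genes, and lay between -0.37 and -0.15 with each library left out. In MBCs the count was 1 under quantile normalization (Dars), 2 with 3 groups in 1 fit (Nars2 and Yars2), 1 among mice of the same label prefix (Yars2) and 0 to 2 with each library left out; the mitochondrial median was -0.68 within the prefix. With each library left out Kars lay between -0.17 and 0.46 in Myc V394D LZ, and in MBCs Yars between -0.38 and 0.90 and Qrsl1 between -1.28 and 0.11; the cause was not tested. With the mouse as a replicate block, 0 synthetases and 248 of all genes were called in MBCs, the medians were -0.06 (cytosolic) and -0.15 (mitochondrial), and Atf4 (adjusted p = 0.117) and Rpp30 (adjusted p = 0.133 from limma) were lost. All genes called numbered 0 to 254 over the alternatives in Myc V394D LZ and 248 to 2754 in MBCs. Depth is unknown, so low genes are limited by the spread between mice alone, and with 4 against 4 or 3 against 4 libraries an exact permutation test cannot go below p = 0.0286.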
